A study of Homo sapiens with 15 samples.

Results

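The genes described here are the 4 kinases that phosphorylate translation initiation factor eIF2 and the genes around that phosphorylation, 10 of the 60670 genes kept from the count table. They were chosen by name and not by any measured value, though with earlier results of these data known. The kinases GCN2, HRI, PKR and PERK are encoded by EIF2AK4, EIF2AK1, EIF2AK2 and EIF2AK3. The others are GCN1 and IMPACT (partners of GCN2), EIF2S1 (the alpha subunit of eIF2), PPP1R15A and PPP1R15B (the phosphatase subunits GADD34 and CReP) and EIF2A (a separate initiation factor). Each name matched 1 Ensembl identifier, and all 10 passed the filter on low counts, with 270 to 11549 counts in a library. RNA sequencing was done on HT-1080, an established human fibrosarcoma line, in 5 groups of 3 libraries, and the study's title names GCN2 as a protein that GNF-7, a tyrosine kinase inhibitor, activates. Cycling cells received the vehicle DMSO and carry a 6 h label. Senescent cells had expressed a dominant negative mutant of TRF2, which uncaps telomeres, for 6 days, and then received DMSO for 6 h, DMSO for 24 h, 1 uM GNF-7 for 6 h or 1 uM GNF-7 for 24 h. All groups were grown in serum free of tetracycline. The labels do not say whether the cycling cells carried the TRF2 construct without expressing it, nor whether the line was 1 clone. No cycling cells with GNF-7 were analysed here, so the effect of GNF-7 is given for senescent cells alone.

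When eIF2 alpha is phosphorylated, eIF2 binds and blocks its own exchange factor, eIF2B, and most translation initiation slows while a few messages with upstream reading frames, ATF4 among them, are translated more. This is the integrated stress response. GCN2 answers to uncharged tRNA and stalled ribosomes, HRI to heme shortage and mitochondrial stress, PKR to double-stranded RNA and PERK to unfolded protein in the endoplasmic reticulum. GADD34 and CReP direct protein phosphatase 1 to eIF2 alpha, the first as a stress-induced subunit and the second as a constitutive one. Read counts show transcript levels and not phosphorylation or kinase activity.

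Library totals ranged from 25991007 to 32323393 counts, and values are given as CPM, counts scaled to library sizes that TMM had normalised. Cycling cells held 58.2 ± 3.65 CPM (SD, n = 3) of TERF2, the gene of TRF2, against 287 ± 8.17 CPM in the 6 h vehicle group of senescent cells, with mutant and endogenous transcripts counted as one. MKI67, a proliferation marker, was at 509 ± 24.3 and 149 ± 3.35 CPM in these groups. Both also differed among the senescent groups. TERF2 was at 222 ± 8.60 CPM with GNF-7 for 6 h, 220 ± 7.26 CPM in vehicle at 24 h and 132 ± 5.38 CPM with GNF-7 for 24 h, and MKI67 at 114 ± 1.84, 125 ± 4.72 and 39.1 ± 4.34 CPM. The part of these differences in the results below was not tested. All 5 mesenchymal markers (VIM, FN1, CD44, LGALS1 and TGFBI) were detected in every group, with a summed level of 7030 to 8400 CPM in the other groups and 5740 to 6050 CPM with GNF-7 for 24 h, below every other library. Against these stood at most 0.347 CPM for 3 epithelial, 0.247 CPM for 3 blood and 2.06 CPM for 3 endothelial markers. In the 24 h comparison FN1 was at 1890 ± 90.5 CPM in vehicle and 860 ± 27.2 CPM with GNF-7, and TGFBI at 54.6 ± 3.56 and 16.1 ± 0.512 CPM, and their part in the results was not tested. The share of counts in mitochondrially encoded genes ran from 3.75 to 5.01% in cycling cells, 11.2 to 12.4% and 15.1 to 18.7% in senescent vehicle cells at 6 h and 24 h, and 13.2 to 15.3% and 22.6 to 24.1% with GNF-7 at 6 h and 24 h. That share moves with every comparison below. With mitochondrial genes left out of the scaling, the log2 fold changes of PPP1R15A, EIF2AK3, EIF2S1 and GCN1 with GNF-7 for 24 h were 1.43, -0.84, -0.48 and -0.44, and each was still called. In bulk RNA fewer cells of a kind and less RNA per cell cannot be told apart.

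Differences between groups were tested with edgeR's quasi-likelihood test on 18563 genes with Benjamini-Hochberg adjustment. A call below means an adjusted p under 0.05. Between senescent and cycling cells 9 of the 10 genes were called, where 70.0% of all genes tested were. Of these 2 were higher, against 35.6% of all genes, and 7 lower, against 34.4%. With GNF-7 for 6 h 5 were called, where 39.3% of all genes were, with 2 higher (17.9% of all genes) and 3 lower (21.4%). With GNF-7 for 24 h 7 were called, where 58.9% of all genes were, with 1 higher (29.3% of all genes) and 6 lower (29.7%). Between the vehicle groups at 24 h and 6 h 5 were called, where 18.5% of all genes were, with 2 higher (9.26% of all genes) and 3 lower (9.29%). The effects of GNF-7 at 24 h and 6 h differed for 5, where 30.8% of all genes did, with 1 difference positive (12.8% of all genes) and 4 negative (18.0%). The libraries of the groups did not overlap for 10 of the 10 genes in senescence (71.5% of all genes), 6 with GNF-7 for 6 h (47.7%), 7 with GNF-7 for 24 h (63.2%) and 7 between the vehicle groups (32.9%). The median log2 fold change of the 10 genes was -0.30 in senescence, -0.02 with GNF-7 for 6 h and -0.14 with GNF-7 for 24 h, against 0.06, 0.01 and 0.04 over all genes tested. These gaps depend on the scaling. With genes under a mean of 5 CPM left out, EIF2AK4 and GCN1, the middle genes in senescence, moved to -0.114 and -0.190. EIF2AK4 and EIF2A, the middle genes with GNF-7 for 24 h, moved to -0.046 and -0.040. The medians over all genes were then -0.00 and 0.01. The comparison of senescent with cycling cells, GNF-7 at 6 h and the vehicle time course share the senescent vehicle libraries at 6 h, and the time course shares the vehicle libraries at 24 h with GNF-7 at 24 h.

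**Figure D1:**
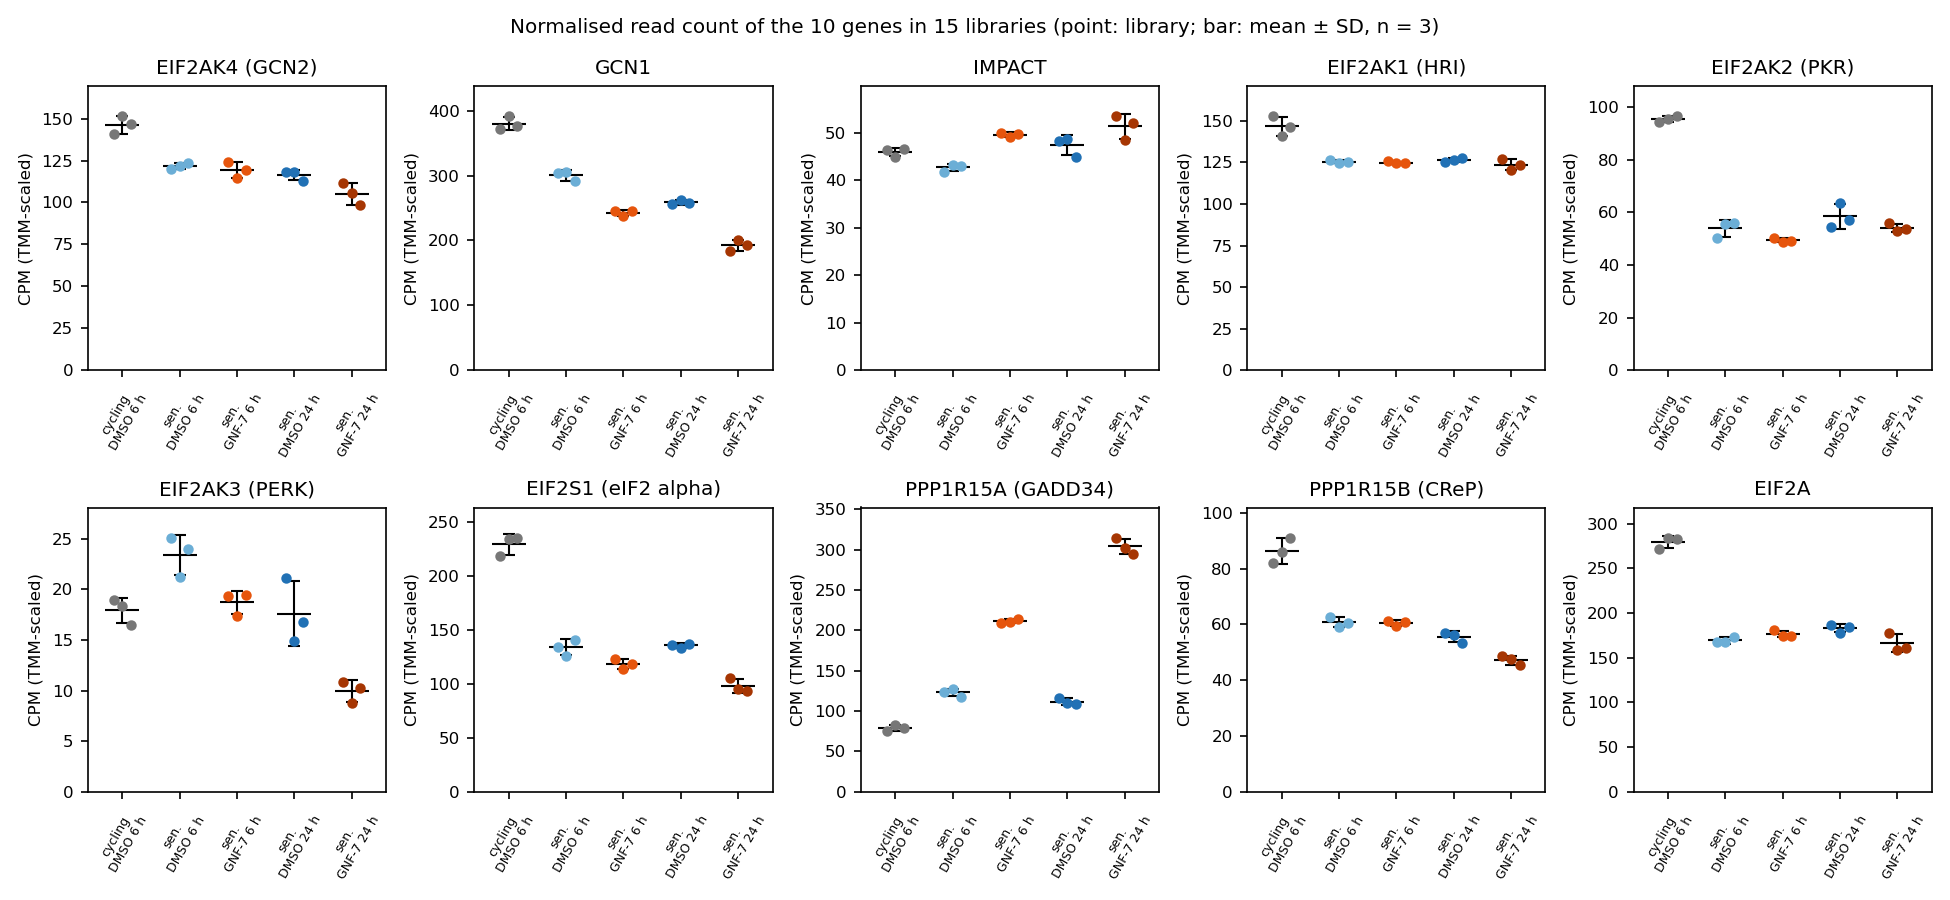
Normalised read count (CPM, TMM-scaled, axis from 0) of the 10 genes in each of the 15 libraries, by group; points are libraries and bars are the mean ± SD of 3. PPP1R15A stands at 295 to 315 CPM with GNF-7 for 24 h, above every other library, while EIF2AK3 stands at 8.77 to 10.8 CPM there, below every other library.

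PPP1R15A (ENSG00000087074, GRCh38 chromosome 19, 48872392 to 48876057, plus strand) had the largest log2 fold changes of the 10 genes with GNF-7. Its product GADD34 is the stress-induced arm that takes the phosphate off eIF2 alpha. It stood at 75.0, 82.6 and 78.8 CPM in the cycling libraries and at 124, 128 and 118 CPM in the senescent vehicle libraries at 6 h. GNF-7 libraries at 6 h held 210, 211 and 214 CPM. At 24 h the vehicle libraries held 116, 110 and 109 CPM and the GNF-7 libraries 315, 303 and 295 CPM. The groups did not overlap in any of the 4 comparisons of groups. PPP1R15A rose 1.56-fold in senescence (log2 0.64, SE 0.042, edgeR adjusted p 2.71e-21). With GNF-7 it rose 1.72-fold at 6 h (0.78, SE 0.040, edgeR adjusted p 2.54e-25) and 2.72-fold at 24 h (1.44, SE 0.0403, edgeR adjusted p 1.86e-39). Of all genes tested, 92.3% had a smaller change in either direction at 24 h. The effect at 24 h was larger than that at 6 h by 0.66 (SE 0.0564, edgeR adjusted p 2.85e-15).

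PPP1R15B (ENSG00000158615, chromosome 1, 204403387 to 204411791, minus strand), whose product CReP is the constitutive phosphatase subunit, did not follow it. It stood at 82.0, 86.0 and 91.0 CPM in cycling libraries and at 62.6, 59.2 and 60.6 CPM in senescent vehicle libraries at 6 h, a fall of 0.51 on the log2 scale (SE 0.0482, edgeR adjusted p 1.68e-14). GNF-7 libraries at 6 h held 61.1, 59.4 and 61.0 CPM, which overlapped the vehicle values. The log2 fold change at 6 h was -0.01 (95% interval -0.11 to 0.09, edgeR adjusted p 0.924). At 24 h it fell from 57.0, 56.3 and 53.4 CPM to 48.6, 47.5 and 45.4 CPM (-0.24, SE 0.0504, edgeR adjusted p 4.67e-05). With genes under a mean of 5 CPM left out the value was -0.136, still called.

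Counted within each library, which needs no scaling between libraries, PPP1R15A had 0.866 to 0.961 times the counts of PPP1R15B in cycling cells, 1.94 to 2.16 times in senescent vehicle cells at 6 h and 3.43 to 3.55 times after 6 h of GNF-7. At 24 h the ratio was 1.95 to 2.05 in vehicle and 6.37 to 6.51 with GNF-7, a 3.20-fold change with no overlap between libraries. The exact two-sided permutation p was 0.1, the smallest that 3 against 3 libraries allow, and 0.122 after adjustment over 28 such ratio tests. The vehicle groups at 6 h and 24 h overlapped in this ratio.

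The promoters of this pair are shown because the phosphatase genes moved apart. Both are RefSeq windows on GRCh38.p14, printed 5′ to 3′ on the gene's strand and ending before the start of transcription. Motif matches are in capitals: the cyclic AMP response element TGACGTCA in PPP1R15A (chr19:48872171-48872391) and the core TGATGNAA of the C/EBP-ATF response element in PPP1R15B (chr1:204411818-204412067).
PPP1R15A: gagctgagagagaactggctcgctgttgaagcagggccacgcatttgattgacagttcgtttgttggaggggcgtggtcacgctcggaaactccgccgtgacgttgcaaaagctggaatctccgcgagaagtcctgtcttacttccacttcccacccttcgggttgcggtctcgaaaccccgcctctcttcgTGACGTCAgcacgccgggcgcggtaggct
PPP1R15B: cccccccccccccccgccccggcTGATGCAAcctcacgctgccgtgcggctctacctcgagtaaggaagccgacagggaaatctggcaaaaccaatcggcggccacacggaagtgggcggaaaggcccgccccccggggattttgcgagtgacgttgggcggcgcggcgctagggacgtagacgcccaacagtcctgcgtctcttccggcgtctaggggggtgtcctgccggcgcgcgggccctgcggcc
Windows of 250 bases before to 50 after the start were searched on both strands for 9 of the 10 genes, EIF2AK1 not among them. TGACGTCA was found in 1 of the 9 and in 1.85% of all 35116 windows, and TGATGNAA in 1 of the 9 and in 3.62% of all. The ER stress element, a bipartite site, was found in EIF2A alone of the 9 and in 0.0769% of all. The 3 motifs do not overlap in these windows. A match describes letters, and no binding was measured.

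**Figure D2:**
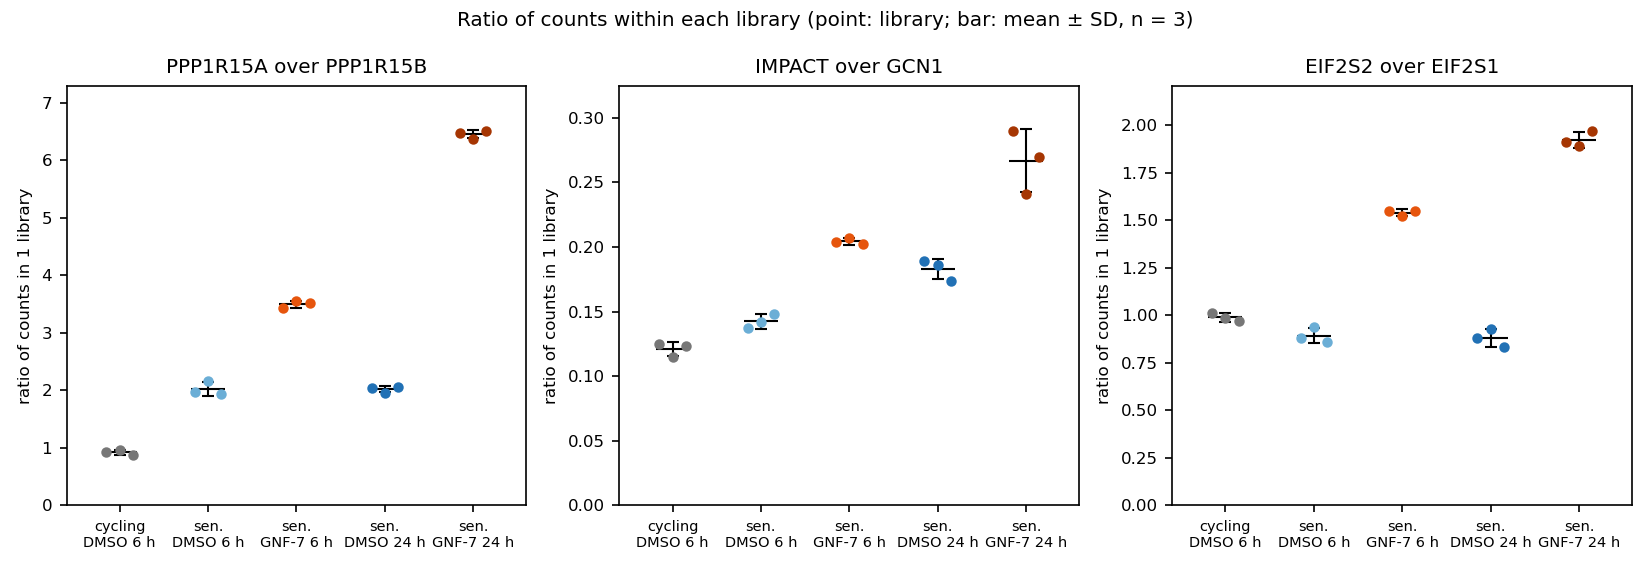
Ratio of the counts of a pair of genes within each library (axes from 0), by group; points are libraries and bars are the mean ± SD of 3. PPP1R15A over PPP1R15B reaches 6.37 to 6.51 with GNF-7 for 24 h, IMPACT over GCN1 reaches 0.241 to 0.29, and EIF2S2 over EIF2S1 is higher with GNF-7 than in vehicle at both times, without overlap.

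EIF2AK4 (ENSG00000128829, chromosome 15, 39934146 to 40035591, plus strand), the gene of GCN2, moved little. Cycling libraries held 141, 151 and 147 CPM and senescent vehicle libraries at 6 h 120, 122 and 124 CPM, a fall of 0.27 on the log2 scale (SE 0.0424, edgeR adjusted p 1.34e-07). Its size depended on the scaling, at -0.132 with total counts and -0.114 with genes under a mean of 5 CPM left out, and both were called. GNF-7 libraries at 6 h held 124, 115 and 120 CPM and overlapped vehicle, with a log2 fold change of -0.03 (95% interval -0.11 to 0.06, edgeR adjusted p 0.657). At 24 h the vehicle libraries held 118, 118 and 113 CPM and the GNF-7 libraries 112, 106 and 98.4 CPM, which did not overlap. The fall at 24 h was 0.15 (SE 0.0432, edgeR adjusted p 0.00277). It was not called with that 5 CPM minimum (-0.046, edgeR adjusted p 0.326) or once replicate 3 of GNF-7 at 24 h, the lowest library, was left out (-0.103, edgeR adjusted p 0.0606).

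GCN1 (ENSG00000089154, chromosome 12, 120127203 to 120194710, minus strand), a ribosome-bound protein that GCN2 needs for its activation, was lower in each comparison. It stood at 372, 391 and 377 CPM in cycling cells and, in senescent cells on vehicle for 6 h, at 305, 305 and 291 CPM (-0.34, SE 0.036, edgeR adjusted p 8.15e-13), or -0.208 with total counts and -0.190 with the 5 CPM minimum, both called. With GNF-7 it fell to 245, 237 and 246 CPM at 6 h (-0.31, SE 0.0363, edgeR adjusted p 1.78e-10). At 24 h it fell from 256, 262 and 258 CPM to 184, 201 and 192 CPM (-0.43, SE 0.0368, edgeR adjusted p 8.16e-16). The groups of each pair did not overlap. It also fell in vehicle between 6 h and 24 h, by 0.22 (edgeR adjusted p 6.70e-06), and by 0.326 with total counts. Its GNF-7 effects at 24 h and 6 h differed by -0.12 (95% interval -0.22 to -0.02, edgeR adjusted p 0.0733), a value that 5 alternatives called.

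IMPACT (ENSG00000154059, chromosome 18, 24426616 to 24453535, plus strand) competes with GCN2 for GCN1 and so restrains it. At 6 h of GNF-7 it was called higher where GCN1 was called lower. It held 46.4, 44.9 and 46.5 CPM in cycling cells and, in senescent cells on vehicle for 6 h, 41.8, 43.3 and 43.0 CPM (-0.10, 95% interval -0.21 to 0.00, edgeR adjusted p 0.0762). GNF-7 libraries at 6 h held 49.9, 49.0 and 49.7 CPM, all above vehicle, a rise of 0.21 (SE 0.053, edgeR adjusted p 7.21e-04). At 24 h the values were 48.3, 48.7 and 44.9 CPM in vehicle and 53.4, 48.5 and 52.0 CPM with GNF-7. These overlapped, and the log2 fold change of 0.12 was not called (95% interval 0.01 to 0.22, edgeR adjusted p 0.0541). It was called under 3 of 15 alternatives, the 5 CPM minimum (0.216, edgeR adjusted p 2.38e-04), total counts (0.144, edgeR adjusted p 0.0175) and replicate 2 of GNF-7 at 24 h left out (0.153, edgeR adjusted p 0.0205). The difference between the effects at 24 h and 6 h was -0.10 (95% interval -0.25 to 0.05, edgeR adjusted p 0.349). The ratio of IMPACT to GCN1 counts was 0.115 to 0.125 in cycling cells, 0.137 to 0.148 in senescent vehicle cells at 6 h and 0.202 to 0.207 with GNF-7. At 24 h it was 0.174 to 0.189 in vehicle and 0.241 to 0.29 with GNF-7. The difference with GNF-7 was 1.44-fold at 6 h and 1.46-fold at 24 h, without overlap. Each had an exact permutation p of 0.1, the smallest that the test allows (adjusted 0.122). The ratio also differed between the vehicle groups at 6 h and 24 h, by 1.29-fold without overlap (exact permutation p 0.1, adjusted 0.122).

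EIF2AK3 (ENSG00000172071, chromosome 2, 88556741 to 88627576, minus strand), the gene of the endoplasmic reticulum kinase PERK, had the largest log2 fold changes of the 4 kinases with GNF-7. It had the fewest counts of the 10 genes in every library. Cycling libraries held 18.9, 18.4 and 16.5 CPM and senescent vehicle libraries at 6 h 25.1, 21.2 and 24.0 CPM, a 1.31-fold rise (0.39, SE 0.0926, edgeR adjusted p 2.45e-04). With GNF-7 at 6 h it fell to 19.4, 17.4 and 19.4 CPM (-0.32, SE 0.0915, edgeR adjusted p 0.00387). At 24 h vehicle libraries held 21.2, 14.95 and 16.8 CPM and GNF-7 libraries 10.8, 8.77 and 10.3 CPM, a 1.78-fold fall (-0.83, SE 0.101, edgeR adjusted p 5.28e-10). None of these pairs of groups overlapped. The effect at 24 h exceeded that at 6 h by -0.51 (SE 0.136, edgeR adjusted p 0.00275). Alternatives gave -0.62 to -0.35 for this difference, with an adjusted p of at most 0.0375. In vehicle alone EIF2AK3 fell between 6 h and 24 h by 0.41 (SE 0.0925, edgeR adjusted p 9.83e-04). Its vehicle libraries came close to touching, at 21.15 CPM in 24 h replicate 1 and 21.19 CPM in 6 h replicate 2. With 1 library left out that value ran from -0.562 to -0.297. Antisense genes share 14.4% and 0.699% of its exon bases, and the strand setting of the counting is not given in the sources used here, so reads from them cannot be told apart.

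EIF2AK2 (ENSG00000055332, chromosome 2, 37099210 to 37157065, minus strand), the gene of the double-stranded RNA kinase PKR and an interferon-induced gene, was called in senescence and not with GNF-7. Cycling libraries held 94.5, 95.6 and 96.5 CPM and senescent vehicle libraries at 6 h 50.1, 55.5 and 56.1 CPM, a 1.77-fold fall (-0.83, SE 0.0505, edgeR adjusted p 1.21e-22). GNF-7 libraries held 50.2, 48.7 and 49.3 CPM at 6 h and overlapped vehicle. At 24 h vehicle libraries held 54.55, 63.7 and 57.3 CPM and GNF-7 libraries 55.9, 53.0 and 53.7 CPM, which overlapped too. The log2 fold change with GNF-7 was -0.12 at 6 h (95% interval -0.23 to -0.02, edgeR adjusted p 0.0511) and -0.11 at 24 h (95% interval -0.21 to -0.01, edgeR adjusted p 0.0629). These lie next to the threshold, and the value at 6 h was called without senescent vehicle 6 h replicate 1 (-0.176, edgeR adjusted p 0.0116), the lowest vehicle library. It was also called with no filter (-0.145, edgeR adjusted p 0.0367) and with a replicate block (-0.124, edgeR adjusted p 0.0435). The value at 24 h was called without vehicle 24 h replicate 1 (-0.164, edgeR adjusted p 0.0115) or GNF-7 24 h replicate 1 (-0.136, edgeR adjusted p 0.0378), with mitochondrial genes left out of the scaling (-0.122, edgeR adjusted p 0.0387) and with no filter (-0.134, edgeR adjusted p 0.0405). ARL14EPP1 and GPATCH11, on the other strand, share 3.73% and 0.325% of its exon bases.

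EIF2AK1 (ENSG00000086232, chromosome 7, 6022244 to 6059230, minus strand), the gene of HRI, fell from 153, 141 and 147 CPM in cycling cells to 127, 125 and 125 CPM in senescent vehicle cells (-0.22, SE 0.0393, edgeR adjusted p 9.85e-07). The 5 CPM minimum ended that call (-0.073, edgeR adjusted p 0.0674), and total counts gave -0.091 (edgeR adjusted p 0.0389). All 12 senescent libraries lay between 120 and 128 CPM. The log2 fold change with GNF-7 was -0.01 at 6 h (95% interval -0.09 to 0.07) and -0.03 at 24 h (95% interval -0.11 to 0.05). AIMP2, on the other strand, shares 9.59% of its exon bases. Reads may also be split with the pseudogene EIF2AK1P1, which was not tested.

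**Figure D3:**
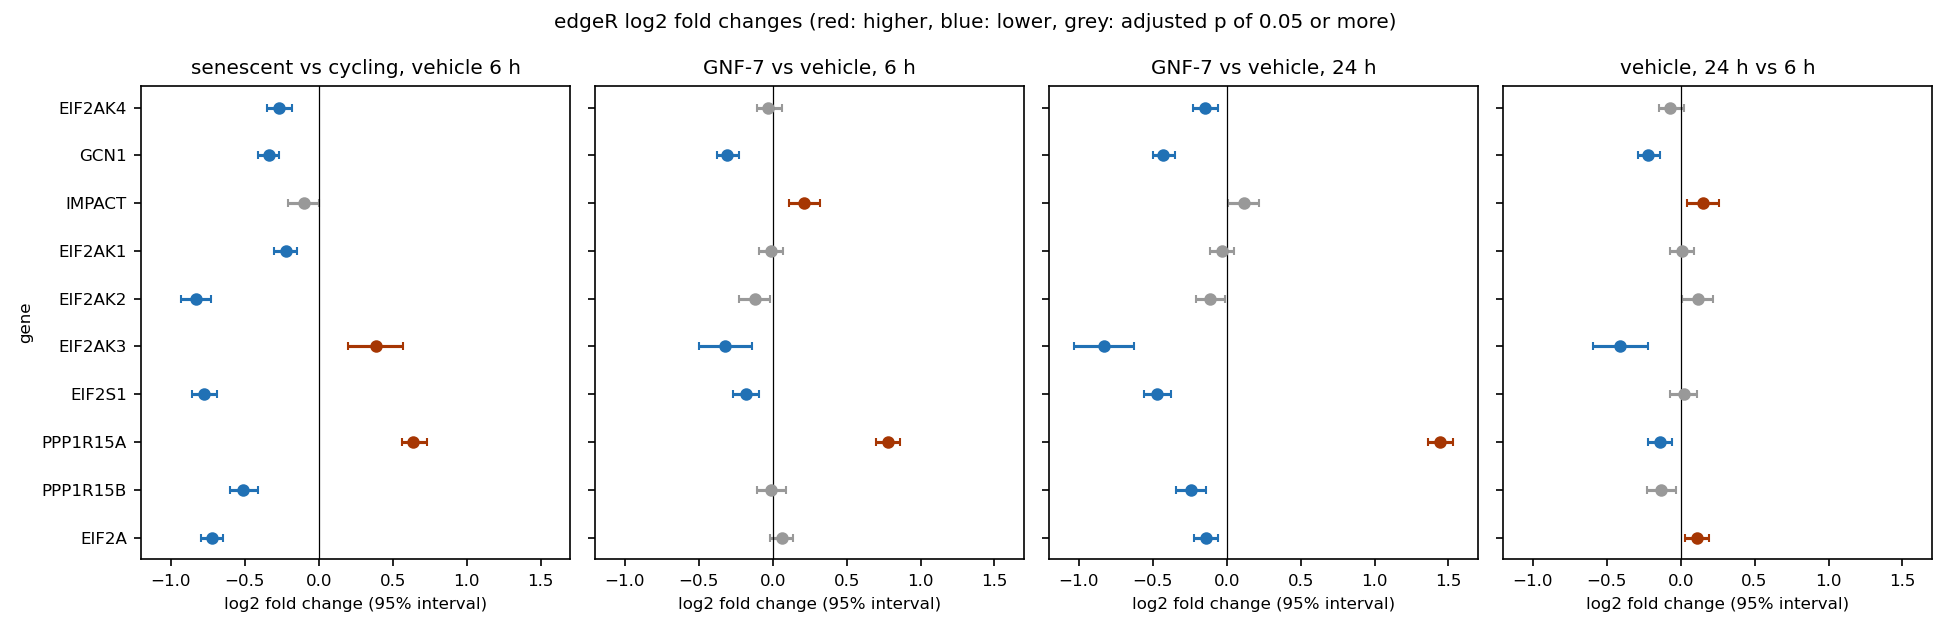
edgeR log2 fold changes of the 10 genes with 95% intervals in 4 comparisons; red and blue points were called higher and lower, grey points were not called. With GNF-7 the points of PPP1R15A lie at 0.78 and 1.44 and those of EIF2AK3 at -0.32 and -0.83, while EIF2AK1 lies near 0 at both times.

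EIF2S1 (ENSG00000134001, chromosome 14, 67359997 to 67386516, plus strand) encodes eIF2 alpha, the substrate of all 4 kinases. It stood at 218, 234 and 235 CPM in cycling cells and, in senescent cells on vehicle for 6 h, at 134, 126 and 141 CPM, a 1.71-fold fall (-0.78, SE 0.0428, edgeR adjusted p 2.23e-24). With GNF-7 it fell to 123, 113 and 118 CPM at 6 h (-0.18, SE 0.0436, edgeR adjusted p 6.92e-04). At 24 h it fell from 136, 133 and 137 CPM to 105, 95.2 and 93.2 CPM (-0.47, SE 0.0442, edgeR adjusted p 2.75e-14). The groups did not overlap in these 3 comparisons, and the effect at 24 h was stronger than that at 6 h by -0.29 (edgeR adjusted p 1.24e-04). ATP6V1D, on the other strand, shares 4.76% of its exon bases.

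The other subunits of eIF2 went the other way under GNF-7. EIF2S2, the beta subunit, stood at 118, 118 and 121 CPM in vehicle and at 191, 173 and 184 CPM with GNF-7 at 6 h, a rise of 0.62 (SE 0.0416, edgeR adjusted p 9.44e-20), and rose by 0.66 at 24 h (edgeR adjusted p 1.42e-21). EIF2S3, the gamma subunit, rose by 0.21 at 6 h (edgeR adjusted p 2.07e-06) and by 0.32 at 24 h (edgeR adjusted p 3.20e-11). All 3 subunits were lower in senescent than in cycling cells, EIF2S2 by 0.92 and EIF2S3 by 0.52. The ratio of EIF2S2 to EIF2S1 counts was 1.73-fold higher with GNF-7 at 6 h and 2.19-fold at 24 h, and that of EIF2S3 to EIF2S1 counts 1.31-fold and 1.73-fold. Vehicle and GNF-7 libraries were apart in all 4 of these ratios. Each had an exact permutation p of 0.1, the smallest that the test allows (adjusted 0.122).

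With EIF5, which triggers GTP hydrolysis on eIF2, and the 5 subunits of eIF2B, these made a list of 8 genes beside the members. The counts of this list and of those below stand against the shares of all genes: 35.6% higher and 34.4% lower in senescence, 17.9% and 21.4% with GNF-7 for 6 h, and 29.3% and 29.7% at 24 h, with medians over all genes of 0.06, 0.01 and 0.04. List genes are named by the smallest p and not by the size of the change. In senescence 7 of 8 were called lower and none higher (median -0.54), and EIF2S2 (-0.92), EIF5 (-0.74) and EIF2B5 (-0.63) had the smallest p. With GNF-7 for 6 h 3 were called higher and 3 lower (median -0.11), and EIF5 rose by 0.68 (SE 0.0359, edgeR adjusted p 1.13e-24) from 201, 210 and 210 CPM to 340, 325 and 330 CPM. The 3 higher were EIF5, EIF2S2 and EIF2S3. At 24 h the same 3 genes were called higher and 4 eIF2B subunits lower (median -0.10), and EIF2B1, the alpha subunit of eIF2B, fell by 0.50 (SE 0.0435, edgeR adjusted p 8.62e-16). EIF2B4 was not called at 24 h (-0.02).

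**Figure D4:**
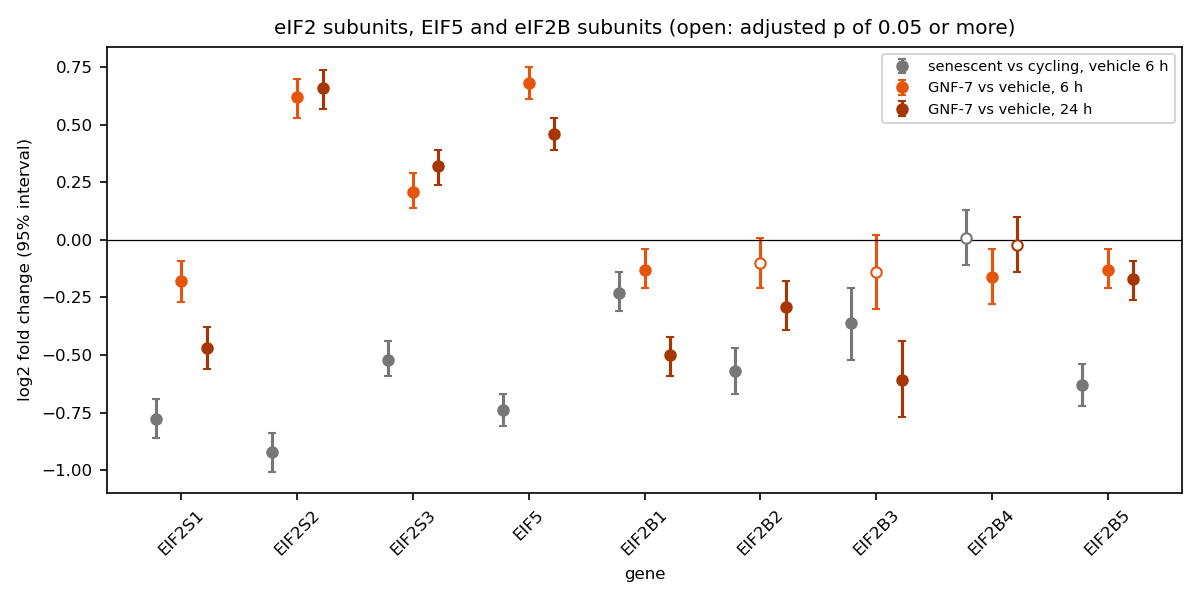
edgeR log2 fold changes with 95% intervals of the 3 eIF2 subunits, EIF5 and the 5 eIF2B subunits in senescence (grey) and with GNF-7 at 6 h and 24 h (light and dark orange); open points were not called. EIF2S2, EIF2S3 and EIF5 lie above 0 with GNF-7 at both times, and EIF2S1 lies at -0.18 and -0.47.

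EIF2A (ENSG00000144895, chromosome 3, 150546678 to 150584242, plus strand) shares a name with eIF2 alpha but encodes a single-chain factor that can bring initiator tRNA to the ribosome. It fell from 272, 284 and 283 CPM in cycling cells to 167, 167 and 173 CPM in senescent vehicle cells (-0.72, SE 0.0388, edgeR adjusted p 2.19e-25). With GNF-7 at 6 h the libraries held 181, 174 and 175 CPM (0.06, 95% interval -0.02 to 0.14, edgeR adjusted p 0.233). At 24 h it was 186, 178 and 185 CPM in vehicle and 178, 159 and 161 CPM with GNF-7, a fall of 0.14 (SE 0.0391, edgeR adjusted p 0.00151) in groups that came close to touching. The 5 CPM minimum ended that call (-0.040, edgeR adjusted p 0.324), under which the value at 6 h was called (0.113, edgeR adjusted p 0.00891). The effects at 24 h and 6 h differed by -0.20 (edgeR adjusted p 0.00318). SERP1, on the other strand, shares 3.7% of its exon bases. Among 3 other factors that act in initiation without eIF2, MCTS1 and EIF2D were called at 24 h (-0.35 and 0.22) and DENR was not (0.01).

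In vehicle, from 6 h to 24 h, EIF2AK3 (-0.41), GCN1 (-0.22) and PPP1R15A (-0.14, edgeR adjusted p 0.0109) were lower and IMPACT (0.15, edgeR adjusted p 0.0402) and EIF2A (0.11, edgeR adjusted p 0.0357) higher. The last 3 calls were weak. That of IMPACT was lost under 8 of 15 alternatives, that of EIF2A under 7 and that of PPP1R15A under 3. PPP1R15B had a similar value to PPP1R15A, without overlap, but was not called (-0.13, edgeR adjusted p 0.0591). It was called lower under 5 of 15 alternatives. Scaling by total counts moved the share of higher genes among all calls in this comparison from 49.9% to 12.5% and gave IMPACT 0.039 and EIF2A 0.001, neither of them called, and PPP1R15A -0.249, still called.

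Regulators of the 4 kinases were counted as a list of 12. In senescence 10 were called lower and 1 higher (median -0.40). The smallest p were those of RPLP0 (-0.75) and RPLP2 (-0.41), proteins of the ribosomal stalk that activates GCN2, and MAP3K20 (-0.98), a sensor of collided ribosomes. With GNF-7 for 6 h 1 was called higher and 2 lower (median 0.00). DNAJC3, an inhibitor of PKR and PERK, fell by 0.56 (SE 0.0493, edgeR adjusted p 5.93e-15) and OMA1, the mitochondrial protease upstream of HRI, by 0.60 (SE 0.109, edgeR adjusted p 7.18e-06). HSPA5, the chaperone that holds PERK inactive, rose by 0.11 (edgeR adjusted p 0.0477), with overlapping libraries. At 24 h 3 were called higher and 4 lower (median 0.05), and DNAJC3 (-0.61), RPLP1 (0.31) and HSPA5 (0.34) had the smallest p. The 3 catalytic subunits of protein phosphatase 1, which GADD34 and CReP recruit, were all lower in senescence (PPP1CA -0.61, PPP1CB -0.32 and PPP1CC -1.04). With GNF-7, PPP1CB rose by 0.25 at 6 h and fell by 0.21 at 24 h, and PPP1CC fell by 0.25 at 24 h.

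The output of the response was counted over 8 genes, a list whose rise with GNF-7 was known from earlier results of these data. All 8 were called higher at both times, with medians of 2.57 at 6 h and 3.07 at 24 h. The smallest p values belonged to TRIB3 (2.80), PSAT1 (2.42) and DDIT3 (2.72) at 6 h and to PSAT1 (3.12), TRIB3 (3.18) and DDIT3 (3.02) at 24 h. The rise of PPP1R15A at 24 h (1.44) lay near the low end of this list, which ran from 1.29 to 4.05. It was above ATF3 (1.29) and below every other gene of the list. At 6 h the 0.78 of PPP1R15A lay below the range of 1.25 to 3.41. In senescence the list split, with 3 higher and 5 lower, and the smallest p values were those of PSAT1 (-1.98), ATF4 (-0.84) and TRIB3 (-0.96), all lower. The 3 called higher were ATF3 (1.20), DDIT3 (1.19) and SESN2 (0.88), named here after their values were seen.

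Levels of different genes were compared per length, as TPM, counts divided by length and scaled to a fixed total, on merged exon lengths of GENCODE release 29, within a group. In cycling cells EIF2A led the 10 genes at 233 ± 11.1 TPM (SD, n = 3), followed by EIF2S1 at 140 ± 8.90 and GCN1 at 136 ± 6.74, which differed by less than their spread. EIF2AK1 at 91.1 ± 1.42 and PPP1R15A at 87.9 ± 6.40 also lay within their spread, and PPP1R15B stood at 56.9 ± 3.92. IMPACT, at 32.2 ± 0.532 TPM, lay between EIF2AK4 and EIF2AK2 without overlapping either. Among the kinases HRI led, and EIF2AK4 at 42.2 ± 2.57, EIF2AK2 at 30.6 ± 0.997 and EIF2AK3 at 11.4 ± 0.761 followed. With GNF-7 for 24 h PPP1R15A led at 228 ± 10.3 TPM, above EIF2A at 93.3 ± 7.16, EIF2AK1 at 51.7 ± 2.27 and GCN1 at 46.3 ± 1.22, while EIF2AK3 was last at 4.26 ± 0.519. EIF2S1 at 40.2 ± 3.16 TPM was followed by IMPACT at 24.2 ± 1.59, PPP1R15B at 21.0 ± 0.930, EIF2AK4 at 20.4 ± 1.5 and EIF2AK2 at 11.7 ± 0.516, and PPP1R15B and EIF2AK4 differed by less than their spread on this length. On the longest transcript EIF2AK4 stood at 37.3 ± 2.65 TPM there, above IMPACT at 26.4 ± 1.62 and PPP1R15B at 17.6 ± 0.742. The annotation gives EIF2AK4 11957 merged exon bases but 5499 in its longest transcript, so its level depends on the length used. On the longest transcript it was 67.7 ± 3.59 TPM in cycling cells. The order of the 4 kinases was the same with both lengths in cycling cells.

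The genes whose log2 CPM followed EIF2AK4 most closely over the 15 libraries were XRN2 (Pearson r 0.984), SLMAP (0.983), RBM27 (0.980), KIF5B (0.979) and the pseudogene MORF4L1P1 (0.974), whose reads may belong to its parent gene. Those closest to PPP1R15A were DLGAP1-AS2, NBR2 and GATAD1 (each 0.990), FKBP15 and SYNE1 (each 0.988), and the antisense gene DLGAP1-AS2 is uncertain without the strand setting. Of 11216 genes compared, 1611 had an r over 0.9 with EIF2AK4 and 490 with PPP1R15A, and the 15 libraries share 5 groups, so these are descriptions.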

How the data were processed

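The authors deposited 1 table of raw counts per Ensembl gene for 15 libraries. Per the submitters' processing notes, bcl2fastq 2.20.0.422, STAR 2.7.9a, featureCounts 1.5.1 and GRCh38 were used; the annotation release and strand setting are not given in the sources used here. Per the labels' protocols the kit was a stranded mRNA kit. Of 60673 rows, 3 (1 broken entry) were left out, and 60400 of 60670 genes (99.55%) had a symbol. Groups and replicates came from the sample titles, which give no time for the cycling group or the 6 h vehicle group of senescent cells. Their 6 h came from other sample labels. No pair of libraries in a group was a duplicate by a chi-square test of counts, and where replicates were not separate cultures the p-values measure only spread between libraries. edgeR 4.0.16 (R 4.3.3; filterByExpr, TMM, robust quasi-likelihood, 1 term per group, 15 libraries, no replicate block) tested 18563 genes. The other settings were RLE or total-count scaling, mitochondrial genes left out of scaling, no filter, a mean of 5 CPM, only the groups compared, a replicate block and each library left out in turn. The biological coefficient of variation was 4.64%. Alternatives used limma 3.58.1 (voom) and DESeq2 1.42.0. The code was tested on simulated counts, where edgeR recovered 147 of 200 genes changed 2-fold, with 10 false calls. Smaller changes were not simulated. Ratios are of raw counts within a library, and the pairs were chosen after their values were seen. Exon lengths came from GENCODE release 29, which held 96.3% of the genes. Named genes were the 10 members, the 3 smallest p of each list per comparison, TERF2, MKI67 and CDKN1A, and the 5 most similar genes. CDKN1A, a label check, was at 186 ± 2.54 CPM (SD, n = 3) in the cycling group and 501 ± 8.96 CPM in the 6 h vehicle group of senescent cells. The members and lists were chosen with earlier results of these data known. Intervals cover the fitted spread, and reads lacking molecular identifiers may repeat a molecule.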

Additional observations from a re-analysis of the deposited data

Results flagged for a closer look

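For 5 of the 10 genes the interaction term of edgeR separated the GNF-7 effect at 24 h from that at 6 h, where 30.8% of all genes tested did. The log2 difference (24 h minus 6 h) was 0.66 for PPP1R15A (edgeR adjusted p 2.85e-15), whose libraries were above vehicle at both times. It was -0.51 for EIF2AK3 (edgeR adjusted p 0.00275) and -0.29 for EIF2S1 (edgeR adjusted p 1.24e-04), both lower than vehicle at both times. It was -0.23 for PPP1R15B (edgeR adjusted p 0.00826) and -0.20 for EIF2A (edgeR adjusted p 0.00318), which were called at 24 h alone. With genes under a mean of 5 CPM left out, EIF2A was instead called at 6 h (0.113, edgeR adjusted p 0.00891) and not at 24 h (-0.040, edgeR adjusted p 0.324). The mitochondrial share was also higher at 24 h, in vehicle and with GNF-7, and its part in these differences was not tested beyond leaving those genes out of the scaling.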

How the results depend on the processing

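Of 31 called member values, 25 kept their call under every alternative, 6 lost it under at least 1 and 0 changed sign. In the vehicle time course 5 members were called, 3 without a filter and between 2 and 4 with any 1 library left out; the lowest count was without senescent vehicle 6 h replicate 2. The sign of uncalled values near 0 changed as follows. With GNF-7 for 6 h, EIF2AK1 and PPP1R15B were each 0.001 with RLE factors and with DESeq2, 0.005 with total counts and with only the groups compared, and 0.045 with a mean of 5 CPM, where EIF2AK4 was 0.025. Left-out libraries gave -0.058 to 0.014 for EIF2AK4, -0.014 to 0.008 for EIF2AK1 and -0.029 to 0.018 for PPP1R15B. IMPACT in senescence was 0.028 with total counts and 0.046 with a mean of 5 CPM. EIF2AK1 was 0.068 at 24 h of GNF-7 and 0.022 in the difference between times with a mean of 5 CPM. In the vehicle time course EIF2AK1 was -0.101 with total counts and -0.002 without a filter, and EIF2S1 was -0.092 with total counts and -0.021 to 0.059 with a library left out. The EIF2AK2 difference between times was -0.003 with mitochondrial genes left out of scaling and -0.037 to 0.077 with a library left out. The cause of these changes was not tested. On the longest transcript the mean level over groups was 51.4 TPM for EIF2AK4, 74.3 for GCN1, 14.4 for EIF2AK2, 27.8 for PPP1R15B, 206 for EIF2A and 145 for EIF2S2, which follows from the other length. Total-count scaling moved the median of all genes by 0.13 in senescence and -0.11 in the vehicle time course. Same-numbered libraries showed no strong pairing: their correlations of deviations ran from -0.0369 to 0.0579, with 0 of 30 pairs over 0.1. Of 15 libraries, 8 correlated best with their own number, so these values cannot decide on a weak pairing. The replicate block raised the genes called with GNF-7 for 6 h from 7286 to 7481. With the replicate block 9, 6, 7, 5 and 5 members were called in senescence, GNF-7 at 6 h, GNF-7 at 24 h, the difference between times and the vehicle time course; the added call was EIF2AK2 at 6 h (-0.124, edgeR adjusted p 0.0435). Depth limited EIF2AK3 most, with 270 counts in its lowest library.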

Other observations

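Among the genes around eIF2, the effect of GNF-7 also differed between 24 h and 6 h for 4 of the 8 eIF2 and eIF2B genes, all 4 differences negative, where 30.8% of all genes tested differed and 18.0% negatively. They included EIF2B1 (-0.38, edgeR adjusted p 1.07e-06) and EIF2B3 (-0.46, edgeR adjusted p 0.00122), subunits of the exchange factor, and EIF5 (-0.22, edgeR adjusted p 4.15e-04), whose rise was smaller at 24 h. The other was EIF2B2 (-0.19, edgeR adjusted p 0.0497), next to the threshold and named after its value was seen. PPP1CB, a catalytic subunit of protein phosphatase 1, differed by -0.45 (edgeR adjusted p 4.62e-09). RPLP1, a ribosomal stalk protein, differed by 0.30 (edgeR adjusted p 8.53e-06) and MAP3K20, the sensor of collided ribosomes, by -0.26 (edgeR adjusted p 0.00507). Of the 8 genes of the response's output 6 differed, all 6 positive, against 12.8% of all genes. The smallest p were those of PSAT1 (0.69), ATF4 (0.42) and TRIB3 (0.38), and CHAC1, named after its value was seen, differed by 0.64. In vehicle between 6 h and 24 h 3 of these 8 were called lower, against 9.29% of all genes, PSAT1 (-0.31), ATF3 (-0.34) and CHAC1 (-0.44). Of the 12 regulators of the kinases 2 were called higher and 3 lower, against 9.26% and 9.29% of all genes. The smallest p among them were those of DNAJC3 (-0.34), ADAR (-0.25) and RPLP2 (0.19). ADAR limits double-stranded RNA that PKR could sense.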
